A study of Mus musculus with 14 samples.

Results

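The calcium, sodium and pacemaker channel genes described here are Cacna1c, Cacna1d, Cacna1g, Cacnb2, Scn10a and Hcn4, 6 of 21887 mouse protein-coding genes. They were chosen by name, with earlier results of these data known. Of the 17587 peaks of the transcription factor PRDM16 in wild-type (WT) ventricles, 37 had one of them as the nearest gene. A peak is a stretch of genome where reads of the chromatin immunoprecipitation (ChIP) were piled above background, and its fold enrichment is the height over background that the authors' peak caller gave. A peak inside 2 overlapping genes was counted for both.

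Binding was measured by ChIP-seq in C57BL/6 mouse hearts at E13.5 (embryonic day), crosslinked with EGS and formaldehyde. Of 14 samples, 7 were PRDM16 ChIP libraries and 7 were inputs, which are chromatin without antibody. Whole hearts without atria gave 2 WT libraries and 1 library of a conditional Prdm16 knockout (Prdm16cKO), each from 3 pooled hearts. Dissected WT left ventricles (LV) and right ventricles (RV) gave 2 PRDM16 libraries per side, from pools of 10 to 12 ventricles. WT samples carry the label Mock for genetic manipulation, and no label names the Cre line or promoter behind the knockout. The files hold no RNA, so that the cell types in a pool could not be checked against markers, and in pooled tissue fewer cells with binding and less binding per cell cannot be told apart.

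Voltage-gated calcium channels have a pore-forming subunit with accessory beta, alpha2delta and gamma subunits, and in heart muscle they start contraction. Voltage-gated sodium channels carry the fast upstroke of the action potential. Pacemaker channels of the Hcn family open on hyperpolarization and drive spontaneous beating.

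PRDM16 peaks were found at all 6 genes, against 32.9% of all protein-coding genes (7202 of 21887). The genes were chosen with earlier results known, and gene length was not matched in the shares given here. These shares are a description and not a test. Cacna1c, the pore of the main L-type calcium channel of heart muscle, carried 18 peaks, and 21 genes in all (0.0959% of all genes) carried as many or more. Cacnb2, the beta subunit that brings that pore to the membrane, had 8 peaks, a number that 333 genes (1.52%) reached or exceeded. Cacna1g, a T-type calcium channel of conduction tissue, had 4 peaks. Scn10a, a sodium channel best known from sensory neurons, and Hcn4, the main pacemaker channel of the sinus node, had 3 each. Cacna1d, an L-type channel of the sinus node, had 1 peak, as the median gene with a peak did.

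In 4 of 9 listed transcription start windows of the channel genes a PRDM16 peak was present, against 1767 of 21263 listed windows of all protein-coding genes (8.31%). As the genes were chosen with earlier results known, this too is a description. A window runs from 250 bases before to 50 bases after a start that RefSeq lists on build GRCm38.p6. RefSeq sequence before these 4 starts is shown, because the strongest peak of all 6 genes lies over one of them and weaker peaks over the other 3. Each line gives the 250 bases before a start, 5′ to 3′ along the strand of the gene, with the matches to a searched motif in capitals. The first is Cacna1c on the minus strand at chr6:119108496-119108745, of which peaks covered 114 bases, and its capitals mark 6 partly overlapping matches to GGGCGG, the motif of SP and KLF factors. The second is Cacna1c on the minus strand at chr6:119196410-119196659, covered in full, with 2 matches to TGACAG, the motif of MEIS factors. The third is Cacnb2 on the plus strand at chr2:14604056-14604305, with 194 bases covered and 1 match to GGGCGG on the opposite strand. The fourth is Cacnb2 on the plus strand at chr2:14823842-14824091, with 68 bases covered and 2 matches to TNAAGTG, the motif of NKX2-5. The match at bases -40 to -34 from the start lies in the covered part, and the match at -170 to -164 lies outside it.
Cacna1c start at 119108495: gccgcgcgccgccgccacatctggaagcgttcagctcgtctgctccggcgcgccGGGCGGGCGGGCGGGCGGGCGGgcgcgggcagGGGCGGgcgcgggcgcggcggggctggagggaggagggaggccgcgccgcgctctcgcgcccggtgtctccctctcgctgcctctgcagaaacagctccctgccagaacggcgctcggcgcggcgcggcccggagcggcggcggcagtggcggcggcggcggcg
Cacna1c start at 119196409: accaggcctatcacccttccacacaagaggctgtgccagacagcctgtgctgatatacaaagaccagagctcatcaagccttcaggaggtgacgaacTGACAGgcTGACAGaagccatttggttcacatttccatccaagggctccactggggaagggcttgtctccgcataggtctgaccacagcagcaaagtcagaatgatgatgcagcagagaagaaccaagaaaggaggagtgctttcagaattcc
Cacnb2 start at 14604306: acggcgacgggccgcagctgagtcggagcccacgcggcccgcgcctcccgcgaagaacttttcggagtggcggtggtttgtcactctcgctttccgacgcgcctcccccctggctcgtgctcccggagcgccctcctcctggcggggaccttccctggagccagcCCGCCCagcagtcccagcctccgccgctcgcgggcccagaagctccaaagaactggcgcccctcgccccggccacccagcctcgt
Cacnb2 start at 14824092: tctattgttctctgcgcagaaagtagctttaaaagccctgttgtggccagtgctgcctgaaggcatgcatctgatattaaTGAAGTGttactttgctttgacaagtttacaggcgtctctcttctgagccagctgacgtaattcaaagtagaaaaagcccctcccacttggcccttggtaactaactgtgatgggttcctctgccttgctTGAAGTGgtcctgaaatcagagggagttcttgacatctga

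These 4 sequences differ in base composition. G and C made up 82.8% of the first and 73.2% of the third, with 48 and 30 CG pairs, against a median of 55.6% and 10 CG pairs over all listed starts and of 62.4% and 17 over starts with a peak. The second and the fourth held 51.6% and 46.0% G and C, with 2 and 3 CG pairs. The strongest peak of Cacna1c therefore lay over a start poor in CG, and its CG-rich start carried a peak of 3.18-fold enrichment.

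Motifs were searched on both strands of the 250 bases before each listed start, and the motifs differ in how many promoters hold them. GGGCGG was found before 42.6% of all listed starts and before 63.8% of those whose window has a peak. TGACAG was found in 15.4% and 16.6%, and TNAAGTG in 9.40% and 6.68%. The other motifs searched were AGATAA of GATA factors (8.81% of all listed starts), GGTGTGA of T-box factors (3.08%), GGAATG of TEAD factors (11.7%), CTATTTA of MEF2 factors (2.45%) and AAGATAA, described for EVI1 and PRDM16 (2.69%), which holds the letters AGATAA. None of these 5 had a match in the 4 sequences shown. A match is a run of letters in the sequence and was not tested as a binding site.

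Before the 5 listed starts of these genes whose window has no peak, some of the same letters also occurred. One Cacna1d window held 5 matches to GGGCGG and the Hcn4 window held 2, both GC-rich at 86.4% and 71.2%. The Scn10a window held 1 match to the TEAD motif. For Cacna1g no strand is given in these sources. Cacna1g also has no window in the sequence table used.

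The strongest peak, Cacna1c peak 18 when peaks are numbered by coordinate within a gene, reached a fold enrichment of 21.7 with a -log10 q of 174. It spans 982 bp at chr6:119196342-119197323, and its summit lies 244 bp before the start at 119196409. Of all genes, 18 (0.0822%) had a peak of at least this fold enrichment. The end of the gene at this place overlaps Dcp1b, an mRNA decapping factor (chr6:119175253-119221614), and 5 of the 18 Cacna1c peaks lie inside both genes, this one included.

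**Figure D1:**
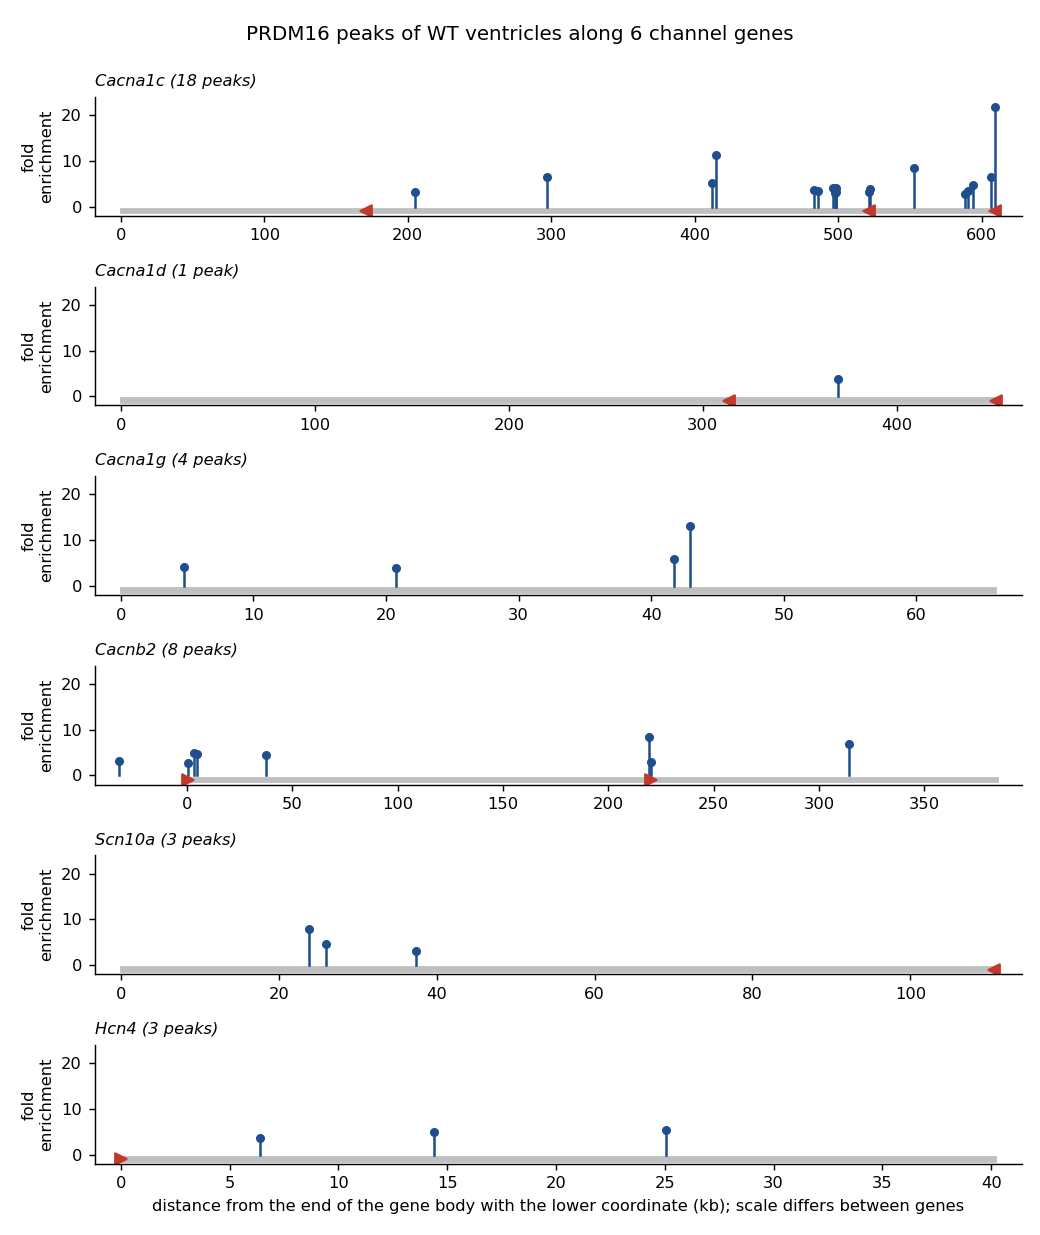
WT PRDM16 peaks along each channel gene, with the distance from the end of lower coordinate in kb on the horizontal axis (its scale differs between genes) and fold enrichment on the vertical axis. Grey bars are gene bodies and red arrowheads are listed starts pointing in the direction of transcription. The highest stem, at 21.7-fold, stands at the right end of Cacna1c, and Cacna1d has 1 stem of 3.66-fold.

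The gene body of Cacna1c covers 610 kb of chromosome 6 (118587240 to 119197384) and all 18 peaks lie inside it. Their fold enrichment ran from 2.66 to 21.7 with a median of 3.95, and 6 peaks reached 5. Peak 4 (11.3-fold, chr6:119001358-119001920) was the next strongest, 106766 bp downstream of the nearest listed start. Peak 13 (8.39-fold, chr6:119139500-119139982) lay 31274 bp upstream of one. Peaks 7 to 10 formed a group of 4 weak peaks of 2.94-fold to 4.10-fold, whose outer summits are 2331 bp apart. Peaks 11 and 12, of 3.18-fold and 3.81-fold, had summits 273 and 590 bp before the start at 119108495.

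Cacnb2 covers 385 kb of chromosome 2 (14603861 to 14988811) with 7 peaks inside and 1 peak 32334 bp outside. Its strongest peak, peak 6 at chr2:14822956-14823607, had a fold enrichment of 8.45 and a summit 888 bp before the inner start at 14824092. Peak 8 (6.91-fold, chr2:14917640-14918182) and peak 3 (5.01-fold, chr2:14606808-14607432) lay 93736 and 2711 bp downstream of a start. Both listed starts of Cacnb2 thus had peaks within 1000 bp, but the peaks on the starts themselves, peaks 2 and 7, were weak at 2.71-fold and 2.88-fold.

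Cacna1g covers 66.0 kb of chromosome 11 (94408391 to 94474400). Its peak 4 at chr11:94451022-94451820 had a fold enrichment of 13.2, which 187 genes (0.854%) reached, and peak 3 (5.79-fold, chr11:94449973-94450334) was its neighbour. Peaks 1 and 2 had 4.20-fold and 3.86-fold. All 4 lay inside the gene, at 6.06 peaks per 100 kb against 2.95 in Cacna1c.

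Scn10a covers 111 kb of chromosome 9 (119608456 to 119719322), with its 3 peaks more than 10 kb from its listed start. Peak 1 at chr9:119631672-119633178 was the widest of the 37 at 1507 bp, with a fold enrichment of 7.99, and peaks 2 and 3 had 4.69 and 3.01. Their summits lay 86689, 84617 and 73142 bp downstream of that start.

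Hcn4 covers 40.2 kb of chromosome 9 (58822949 to 58863175), and with 3 peaks inside it held 7.46 per 100 kb, the most of the 6 genes for its length. Peak 3 (5.34-fold, chr9:58847716-58848228), peak 2 (5.01-fold, chr9:58837216-58837489) and peak 1 (3.63-fold, chr9:58829232-58829421) lay 25044, 14378 and 6404 bp downstream of the start. Cacna1d, on chromosome 14 at 30039941 to 30491156, covers 451 kb with its 1 peak (3.66-fold, chr14:30409417-30409582), or 0.222 per 100 kb.

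**Figure D2:**
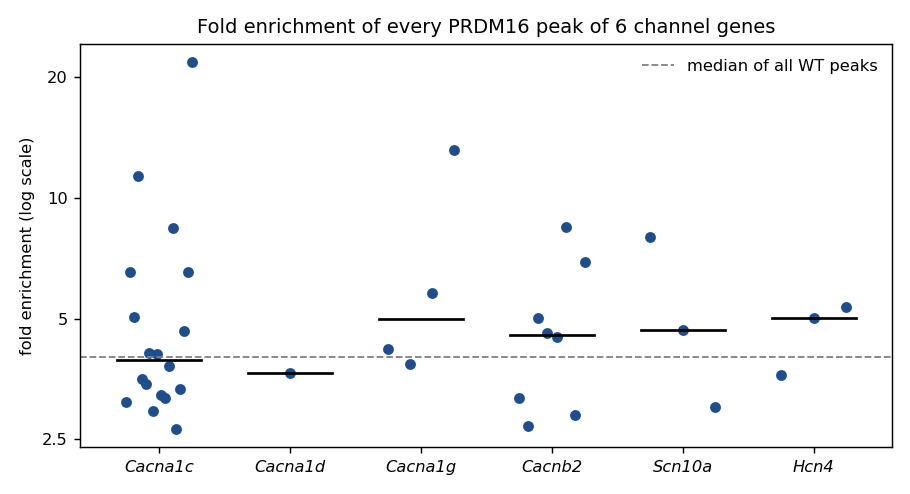
Fold enrichment (log scale) of each WT PRDM16 peak, by gene. Points are peaks, black lines are medians and the dashed line is the median of all WT peaks, 4.0. Cacna1c and Cacna1g hold the 3 peaks above 10, and the Cacna1c median of 3.95 lies below the dashed line.

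The median fold enrichment of the 37 peaks was 4.20, against 4.0 over all WT peaks. A fold enrichment of at least 5 was reached by 14 of 37 (37.8%; all WT peaks 26.1%) and of at least 10 by 3 (8.11%; all 2.95%). Deeper inside a gene, more than 1000 bp from an end of any protein-coding gene, lay 33 (89.2%; all 48.5%). Gene length was not matched in these shares of location. Within 1000 bp of a gene end lay 3 (8.11%; all 16.4%), outside but within 50000 bp lay 1 (2.70%; all 19.5%), and further away lay 0 (all 15.6%). Of the 33 peaks of genes with a listed start, 6 (18.2%) had their summit within 1000 bp of one, against 17.5% of all such WT peaks. More than 10000 bp from a listed start lay 23 of the 33 (69.7%; all 68.3%).

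The knockout served to check the specificity of the antibody. None of the 37 peaks (0%, 95% Wilson interval 0 to 9.41%) overlapped one of the 330 knockout peaks by at least 1 bp, against 1.12% of all WT peaks (197 of 17587). A second bound, which lets a count of 0 stand for up to 3 of 37, is 8.11%. By both bounds the members' share is not distinguishable from that of all WT peaks. The nearest knockout peak was 1694 kb from Cacnb2, 2599 kb from Hcn4, 3743 kb from Scn10a, 3869 kb from Cacna1g, 6680 kb from Cacna1c and 21753 kb from Cacna1d. The knockout list rests on 1 library of unknown depth, so that a missing peak there is no measure of lost binding.

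The comparison of LV with RV asked whether PRDM16 binding at these genes differs between the ventricles. No channel gene passed the test, and at the strongest region of 5 of the 6 genes the log2 of RV over LV in the authors' deposited table lay between -0.27 and 0.18. Whole reads per library were recovered from the deposited LV and RV values, in LV libraries called A and B and RV libraries called A and B, letters that carry no replicate number. The 4 libraries held 330443, 184244, 281797 and 267808 reads within all WT peaks, and the median peak held 10, 6, 9 and 8. Normalized reads are those reads times a factor per library taken from the deposited values.

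Summed over its 18 peaks, Cacna1c had 484 and 197 reads in LV A and B and 404 and 318 in RV A and B, or 360 and 289 against 350 and 307 normalized reads. The groups overlapped. log2 RV over LV was 0.02 (SE 0.213, 95% interval -0.41 to 0.46, limma with Benjamini-Hochberg adjustment over 7202 genes, adjusted p = 0.996). This interval corresponds to a ratio between 0.753 and 1.37. Peak 18 alone held 38.2% of these reads.

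Cacnb2 had 142 and 68 reads in LV and 115 and 113 in RV, or 105.7 and 99.6 against 99.6 and 109 normalized reads. The RV values lay on both sides of those of LV, with a log2 of 0.02 (SE 0.209, interval -0.40 to 0.45, limma adjusted p = 0.996). For Scn10a the normalized reads were 70.7 and 51.3 in LV against 57.2 and 60.8 in RV (reads 95, 35, 66 and 63), with RV between the LV libraries. Its log2 was -0.03 (SE 0.235, interval -0.51 to 0.45, limma adjusted p = 0.996), and peak 1 held 69.5% of its reads. Hcn4 had 18.6 and 29.3 in LV against 24.2 and 21.2 in RV (reads 25, 20, 28 and 22), which overlap, with a log2 of -0.04 (SE 0.321, interval -0.69 to 0.61, limma adjusted p = 0.996).

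Cacna1g and Cacna1d were the genes whose groups did not overlap, with both RV libraries above both LV libraries. Among all 7202 genes with a peak this order was seen in 17.3% and the opposite order in 17.6%. The share of 2 of 6 genes is above 17.3%, but it rests on few genes and was not tested. Cacna1g had 84.1 and 73.3 normalized reads in LV and 97.9 and 96.5 in RV (reads 113, 50, 113 and 100). Its log2 was 0.30 (SE 0.214, interval -0.13 to 0.74), which missed the threshold (limma adjusted p = 0.865). Cacna1d had 3 and 1 reads in LV and 7 and 4 in RV, a log2 of 1.05 that rests on 15 reads (SE 0.708, interval -0.38 to 2.49, limma adjusted p = 0.852). The intervals leave room for a difference of either sign at all 6 genes. In all, 0 of the 6 genes were called at an adjusted p under 0.05, against 3 of 7202 (0.0417%), and 0 had an unadjusted p under 0.05 (all genes 6.71%). An exact test of 1 gene with 2 libraries against 2 cannot go below p = 0.333, two-sided.

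**Figure D3:**
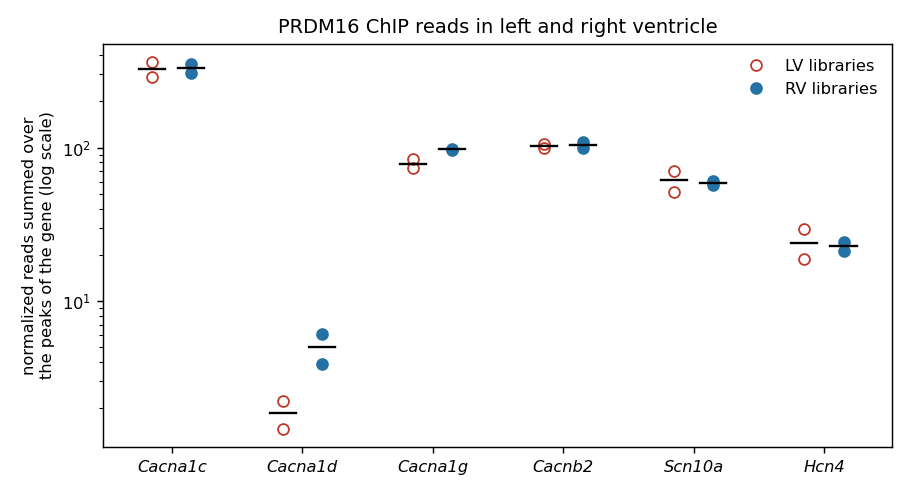
Normalized PRDM16 reads summed over the peaks of each gene (log scale) in the LV libraries (open circles) and RV libraries (filled circles), with the mean of each group as a line. RV libraries lie above both LV libraries at Cacna1g (97.9 and 96.5 against 84.1 and 73.3) and Cacna1d, an order seen in 17.3% of all genes with a peak, and the groups overlap at the other 4 genes.

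The sign of the value for Cacna1c, Cacnb2, Scn10a and Hcn4 changed when 1 library was left out. Without LV library B the log2 of Hcn4 was 0.27 and that of Cacna1c was -0.14, and without LV library A that of Scn10a was 0.20. Cacna1g kept its sign, at 0.21 to 0.40, as did Cacna1d, at 0.78 to 1.32.

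Among single regions, 0 of 37 were called by limma with Benjamini-Hochberg adjustment over 17587 regions, against 5 of all regions (0.0284%). At an unadjusted p under 0.05 there were 2 of 37, against 6.32% of all regions. The test behind the authors' deposited table is not stated. By the p-values of the authors' deposited table, 0 of 37 had an adjusted p under 0.05 (all regions 0%) and 0 of 37 an unadjusted p under 0.05 (all regions 0.483%), with 0.147 as the smallest. Both LV libraries stood above both RV libraries at 4 of 37 regions (all regions 17.9%), and both RV libraries above both LV libraries at 6 (all regions 17.6%). Neither share is above that of all regions.

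The regions of smallest p both belong to Cacna1c and point in opposite directions. Peak 3 (chr6:118999210-118999759, 5.05-fold) had 36 and 18 reads in LV and 21 and 11 in RV, or 26.8 and 26.4 against 18.2 and 10.6 normalized reads. Both LV libraries were higher, with a log2 of -0.89 (SE 0.361, limma adjusted p = 0.706). Peak 16 (chr6:119181123-119181318, 4.67-fold), inside Dcp1b as well, had 6 and 2 reads in LV and 10 and 13 in RV, with a log2 of 1.3 (SE 0.540, limma adjusted p = 0.706). There both RV libraries were higher. Peak 4, 2273 bp from peak 3, was also higher in both LV libraries, with 29.0 and 33.7 normalized reads against 28.6 and 20.3 (log2 -0.36, limma adjusted p = 0.900). The size of both differences varied most with the RV library left out. Peak 3 was at -0.52 without RV library B and -1.25 without RV library A, and peak 4 at -0.13 and -0.60. Without LV library A or B, peak 3 was at -0.87 or -0.90, and peak 4 at -0.47 or -0.26.

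At the strongest regions the LV and RV libraries overlapped, except at Cacna1d, whose single region is the weak one described above. Cacna1c peak 18 had 182 and 67 reads in LV and 158 and 129 in RV, or 135 and 98.2 against 137 and 124 normalized reads, which overlap. In the authors' deposited table it had 117 in LV and 131 in RV (log2 0.16). Cacna1g peak 4 had 72 and 29 reads in LV and 69 and 51 in RV, and 48.5 against 55.0 in the authors' deposited table (log2 0.18). Cacnb2 and Hcn4 showed smaller differences. Cacnb2 peak 6 had 49 and 15 reads in LV and 44 and 26 in RV, and 29.7 against 32.1 in the authors' deposited table (log2 0.11). Hcn4 peak 3 had 16 and 10 against 16 and 13 reads, and 13.8 against 13.7 there (log2 -0.01). Scn10a peak 1 ran the other way, with 71 and 26 reads in LV and 47 and 36 in RV, and 46.0 against 38.2 in the authors' deposited table (log2 -0.27). Its groups overlapped too, at 52.8 and 38.1 against 40.7 and 34.7 normalized reads. By limma its log2 was -0.25, and it was -0.02 without LV library A and -0.48 without LV library B.

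Weaker regions with groups that did not overlap lay on both sides. Cacna1g peak 1 had 26 and 11 reads in LV and 28 and 33 in RV, a log2 of 0.63 (SE 0.343, limma adjusted p = 0.806). Cacna1g peak 2 had 4 and 3 reads in LV and 7 and 7 in RV, so that RV was higher at both. Cacnb2 peak 2, on the outer start, had 12 and 5 reads in LV and 3 and 6 in RV (log2 -0.88, SE 0.569, limma adjusted p = 0.835). Cacnb2 peak 3, 2701 bp downstream of that summit, went the other way, with 9.68 and 10.3 against 13.9 and 12.5 normalized reads. The remaining regions without overlap, Cacna1c peaks 5 and 10, held at most 10 reads in any library.

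**Figure D4:**
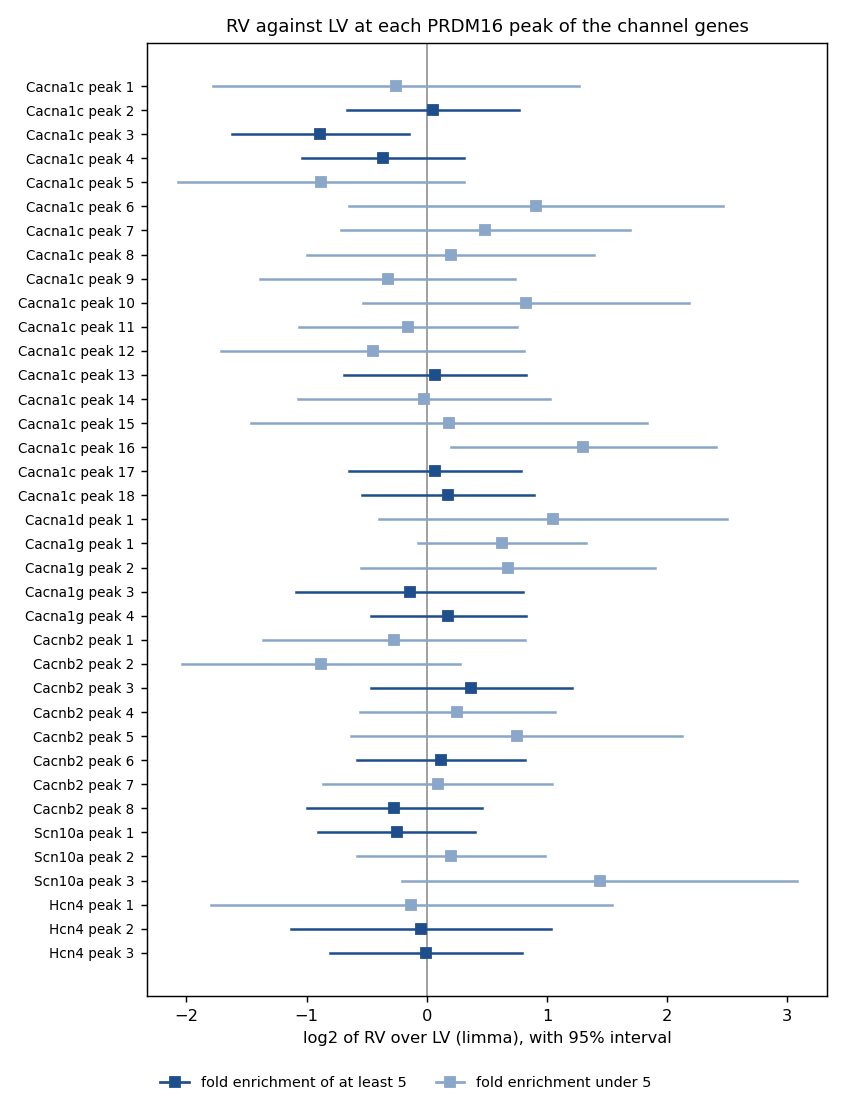
log2 of RV over LV by limma at each of the 37 regions, with its 95% interval, numbered by coordinate within each gene. Dark squares are regions with a fold enrichment of at least 5. The intervals of Cacna1c peaks 3 (-0.89) and 16 (1.3) leave out 0 before adjustment, and all others cross it.

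Across the 37 regions the median log2 in the authors' deposited table was 0.0051, against -0.0028 over all regions. Taken between single libraries it ran from -0.02 to 0.24, and it was 0.28 without LV library A. It was higher in LV at 16 regions and higher in RV at 21. An absolute log2 of at least 1 was seen at 3 regions (8.11%; all regions 10.6%), those of Cacna1d, Cacna1c peak 16 and Scn10a peak 3, each with a mean under 8 reads. Among the 14 regions with a fold enrichment of at least 5 the median absolute log2 was 0.157 and the largest was 0.86, against a median of 0.313 over all such regions. Among the other 23 the median was 0.498, against 0.396. Values in LV and RV had a Spearman rho of 0.878 over the 37 regions (0.808 over all regions), as a description of regions that share libraries and differ in width.

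The wider channel families, taken whole by name, held 45 genes, of which 24 had a peak (53.3%), with 79 peaks in all. Without the 6 genes described, 18 of 39 had a peak (46.2%, against 32.9% of all genes). The families were also chosen with earlier results known, and gene length was not matched. Of pore-forming calcium channel genes 7 of 10 had a peak, of beta subunit genes 3 of 4, of alpha2delta genes 3 of 4 and of gamma subunit genes 3 of 8. Of pore-forming sodium channel genes 4 of 10 had one and of sodium channel beta subunit genes 2 of 4, while Nalcn, the sodium leak channel, had none. Among the other members, Cacnb4 (13.9, with 7 peaks) and Cacna2d1 (11.5, with 7), accessory subunits, had high fold enrichment. Lower values were those of Cacna2d3 (8.32), Cacna1h (7.98), a T-type pore, Cacng6 (6.87), a gamma subunit, Cacna1a (6.30) and Cacna2d2 (5.15). Cacnb4 and Cacna2d1 thus reached values between those of Cacna1c and Cacnb2.

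The genes most like each channel gene were found by the summed difference in percentile rank of the number of peaks, the highest fold enrichment and the log2 RV over LV, among 7202 genes with a peak and over the 4 LV and RV libraries. They were Tns1 (1.01 percentile points) and Pakap (1.57) for Cacna1c, Calm2 (0.583) and Pgrmc2 (2.87) for Cacnb2, and Asb2 (1.35) and Slc25a13 (3.84) for Cacna1g. For Scn10a they were Prn (1.01) and 2510039O18Rik (1.32), for Hcn4 Tlr5 (1.43) and Zbtb38 (2.67), and for Cacna1d Tmem135 (0.889) and Cypt12 (1.01). Tns1, a focal adhesion protein, had 26 peaks and a highest fold enrichment of 16.9, and Calm2, a calmodulin, had 8 peaks and 8.37.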

How the data were processed

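Per the submitters' processing notes, the tools were DESeq2, HOMER, MACS2 2.1.1.20160309 and BWA 0.7.12-r1039 and the builds mm10 and GRCm38, with no role stated. The deposited peak lists hold a score, a fold enrichment (a ratio of ChIP to background), and a -log10 q per peak, which are the authors' values. Neither labels nor headers say how replicates were pooled. The authors' deposited LV and RV table holds a signal per ventricle, log2 values, a p-value and a q-value for each of the 17587 WT peaks.

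Every LV and RV signal was the mean of 2 libraries' whole reads, scaled, with 0.5 added; the scale was 0.744 (LV A), 1.47 (LV B), 0.866 (RV A) or 0.965 (RV B), with 1 solution in 100% of regions (largest residual 1.55e-11, tolerance 1e-07). limma 3.58.1 in R 4.3.3, with a mean-variance trend, was run on log2(normalized reads + 1), over all regions or over reads summed per gene, with no minimum of reads, and was tested on simulated data. Changes were simulated only at regions of higher signal, so that finding a change at weak regions was not tested. The threshold was a Benjamini-Hochberg adjusted p of 0.05. Nothing in the labels says that replicate pools came from separate litters, so that p-values measure the spread between pools. Intervals of shares cover counting error only.

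Each summit was given to the protein-coding gene whose body lay nearest in a RefSeq table (GRCm38.p6), all 6 genes being found by symbol; a summit inside 2 genes counted for both. Promoter sequences are from RefSeq on the same build, and 5 of the 6 genes matched. Exons and introns, peak sequences and reads of inputs and whole-heart libraries were not analysed here. The genes, families and motifs were chosen with earlier results of these data known. Named are, for each gene, the 3 peaks of highest fold enrichment and the region of smallest p, up to 8 other family genes of highest fold enrichment, and the 2 most similar genes; other peaks were named after their values were seen. Part of what this rule would name is not reported here. Other steps used matplotlib 3.10.9, scipy 1.17.1, pandas 2.3.3 and numpy 2.4.6 under Python 3.11.15.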

Additional observations from a re-analysis of the deposited data

How the results depend on the processing

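The number of peaks of the 6 genes was 37, but 24 with -log10 q from 5 upward and 14 with fold enrichment from 5 upward. It was 37 without knockout overlaps, 52 with any peak within 50000 bp of a channel gene, 36 with genes within 10000 bp, 36 with genes of any kind and, added after the data were seen, 34 with shared peaks counted once. The overlap with knockout peaks was 0 under each of its alternatives, and limma called 0 of 37 regions under each of its own. Over all regions limma called 90 without LV library A, 22 without LV library B and 0 without either RV library. The median log2 over the regions was 0.011 to 0.28 with 1 library left out. Per gene, with 1 library left out, log2 ranged from -0.14 to 0.18 for Cacna1c, 0.78 to 1.32 for Cacna1d, 0.21 to 0.40 for Cacna1g, -0.043 to 0.086 for Cacnb2, -0.26 to 0.20 for Scn10a and -0.36 to 0.27 for Hcn4. Adjusted p over these genes and alternatives was 0.554 at the lowest. Cacna1c was at -0.017 with shared peaks counted once, and Scn10a at 0.0058 with equal totals, as was Hcn4 peak 3 at 0.032; the cause was not tested. With 1 library left out, signs also changed at Cacna1c peak 18 (-0.054 to 0.41) and peak 13 (-0.57 to 0.71), Cacna1g peak 3 (-0.29 to 0.0062), Cacnb2 peak 6 (-0.23 to 0.47), Scn10a peak 2 (-0.067 to 0.47) and Hcn4 peaks 1 (-1.25 to 1.0), 2 (-0.30 to 0.20) and 3 (-0.14 to 0.14). The cause was not tested. Single regions with a mean under 8 reads, 18 of the 37, have wide intervals. No paired analysis was possible because the LV and RV columns carry no replicate number.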

Other observations

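Peaks near Hcn4 that were assigned to other genes were read after their values were seen. Within 50000 bp of Hcn4 lay 8 of them. Of these, 6 were nearest to Rec114 and lay inside it, a meiotic recombination gene whose body lies 243 bp from that of Hcn4. The other 2 were nearest to Neo1, a guidance receptor. All 6 Rec114 peaks had the higher value in LV in the authors' deposited table, with a log2 RV over LV of -0.46 to -2.20 (median -0.71), and at 4 of the 6 both LV libraries stood above both RV libraries. Over all regions 50.2% were higher in LV and 17.9% had both LV libraries above both RV libraries. The 6 peaks are neighbours that share the same libraries and are not independent, so that these shares are no test. Of the Neo1 peaks, one was higher in RV (log2 0.28) and one higher in LV (-0.70) in the authors' deposited table. The peak nearest to the start of Hcn4, 1356 bp before it at chr9:58821447-58821712 (3.16-fold), had 11 and 5 reads in LV and 3 and 0 in RV. Its log2 by limma was -2.21 (SE 0.742, limma adjusted p = 0.599). The strongest of the 6 (8.59-fold, chr9:58813786) had 12 and 14 reads in LV against 11 and 12 in RV, which is 8.93 and 20.5 against 9.53 and 11.6 normalized reads, so that its groups overlapped. None of the 6 passed (smallest limma adjusted p = 0.599), while the 3 peaks inside Hcn4 were at -0.01 to -0.34 in the authors' deposited table.

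Within 50000 bp of Cacna1c, 3 further peaks were assigned to Dcp1b alone, of 3.55-fold to 5.10-fold. One of them had 5 and 9 reads in LV and 22 and 17 in RV (log2 1.19 by limma, SE 0.459, limma adjusted p = 0.676). Another ran the other way, with 20 and 9 reads in LV and 9 and 12 in RV (log2 -0.51 by limma, SE 0.415, adjusted p = 0.882), and the remaining one had 7 and 5 reads in LV and 9 and 11 in RV (log2 0.49, SE 0.497, limma adjusted p = 0.923). None of the 3 passed the adjusted threshold.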
